A study of Homo sapiens with 36 samples.

Results

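Neurons are classed by the transmitter they release, and 10 genes that make or package the classical transmitters were followed through induced differentiation of human embryonic stem cells labelled by RAI1 genotype. The 10 genes, of 62710 in the count table, were taken by symbol: the vesicular glutamate transporters SLC17A6, SLC17A7 and SLC17A8, the GABA genes SLC32A1, GAD1 and GAD2, the acetylcholine genes CHAT and SLC18A3, and the monoamine enzymes TH and DDC. The rule itself used no measured value. All 36 libraries came from H9, a human embryonic stem cell line, in which doxycycline switches on NGN2, a proneural transcription factor that turns stem cells into neurons within days. Cells labelled WT, RAI1 Het (HET) and RAI1 Knockout (KO) were collected on day 0 of induction and 3 or 7 days into it, which gives 9 groups of 4 replicates. RAI1 is the dosage-sensitive gene of Smith-Magenis syndrome, a neurodevelopmental disorder. Every group shared the H9 background and the culture scheme, which used a Neurobasal-A medium with B27, GDNF, NT3 and CultureOne. The labels call the replicates biological, but do not say whether they were separate inductions or whether a genotype was 1 edited clone, so the p-values measure the spread between these libraries and genotype cannot be told apart from edited line.

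A neuron uses glutamate as a transmitter once a vesicular glutamate transporter loads it into vesicles. GABA is made from glutamate by the decarboxylases GAD1 and GAD2 and loaded by SLC32A1, acetylcholine is made by CHAT and loaded by SLC18A3, and TH and DDC are successive enzymes of dopamine synthesis. NGN2-induced neurons are known as mainly glutamatergic cells, in which transcripts of other transmitter systems can also be found.

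Library totals ran from 23948079 to 56678796 counts, so that 3 counts, the floor used for detection, were worth 0.0542 to 0.121 CPM (counts-per-million) on TMM-scaled totals. CPM compares a gene between libraries, and the deposited TPM (transcripts-per-million) is per length and compares genes within a library. RAI1 itself did not check the labels: its range was 37.5 to 73.8 CPM in WT, 50.5 to 85.7 in HET and 63.9 to 95.7 in KO at day 7, and it overlapped between genotypes on every day, so all directions follow the labels. Summed CPM of 14 pan-neuronal markers was 1661 to 2088 in WT, 2548 to 5646 in HET and 6327 to 10300 in KO at day 3. At day 7 the sums were 7659 to 15370, 16800 to 22160 and 19380 to 25950. Summed CPM of 10 markers of dividing cells at day 7 was 52.5 to 308 in WT, 19.2 to 43.4 in HET and 20.7 to 25.3 in KO. Summed CPM of 5 astrocyte markers at day 7 was 12.7 to 24.6 in WT, 1.17 to 2.53 in HET and 1.36 to 1.67 in KO. Only 1 of the 5 had a mean over 1 CPM in WT, and none in HET or KO. Of 3 tested in KO against WT, 1 was called higher and 1 lower. The same list summed to 492.5 to 523 CPM in WT stem cells of day 0, so this sum cannot stand for astrocytes. Summed CPM of 8 pluripotent stem cell markers at day 7 was 70.1 to 111 in WT, 111 to 215 in HET and 299 to 361 in KO, with POU5F1 and TDGF1 at or under 3 counts in KO. These marker sums moved with genotype, and their part in the results on the transmitter genes was not tested. In bulk RNA, fewer cells of a type and less RNA per cell cannot be told apart. HET replicate 1 of day 7 had the highest share of counts in 5 small structural RNAs (27.5%) and HET replicate 2 the lowest (2.84%), against 14.5% to 25.6% in WT and 9.9% to 15.8% in KO. Results of day 7 are also given without replicate 1 of HET and WT where that changes a call. This pair was chosen after seeing the data. Other libraries near the extremes were kept, such as HET replicate 3 at 4.17% and WT replicate 3 at 23.5%.

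Glutamate transporters made up most of the transmitter transcripts once neurons had been induced. At day 3 they held 83.0% to 90.5% of the summed TPM of the 10 genes in WT, 83.3% to 93.2% in HET and 82.9% to 93.6% in KO. At day 7 the ranges were 87.6% to 92.0%, 86.4% to 94.5% and 89.3% to 92.9%, so the genotypes overlapped on both days. Acetylcholine genes came next at 4.58% to 16.4% over all libraries of day 3. At day 7 their share was 6.35% to 6.98% in WT, 2.07% to 4.29% in HET and 3.43% to 4.91% in KO, with WT above both mutants. The summed TPM of the 10 genes was itself 22.65 to 40.95 in WT, 37.97 to 178.9 in HET and 55.42 to 89.03 in KO at day 7. A lower share thus need not be a lower level of each gene. TPM and CPM also ranked libraries differently. At day 7 SLC17A7 had 58.46 TPM and 122.2 CPM in HET replicate 2. In WT replicate 3 it had 23.07 TPM and 239.2 CPM. TPM sums and means are therefore not read as levels between genotypes. Mean TPM in WT, HET and KO was 1.395, 2.382 and 2.425 for SLC18A3, and 0.7875, 0.63 and 0.4625 for CHAT. Mean CPM in the same order was 10.16, 8.671 and 12.36 for SLC18A3, and 12.29, 5.125 and 5.058 for CHAT. GABA genes held 0.286% to 2.86% over the libraries of day 3, and at day 7 0.618% to 1.88% in WT, 2.39% to 5.79% in HET and 0.79% to 4.76% in KO. At day 7 their share exceeded that of the acetylcholine genes in HET replicates 2, 3 and 4 and KO replicates 3 and 4, and in no WT library. At day 0 the 10 genes together reached only 0.59 to 3.47 TPM.

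**Figure D1:**
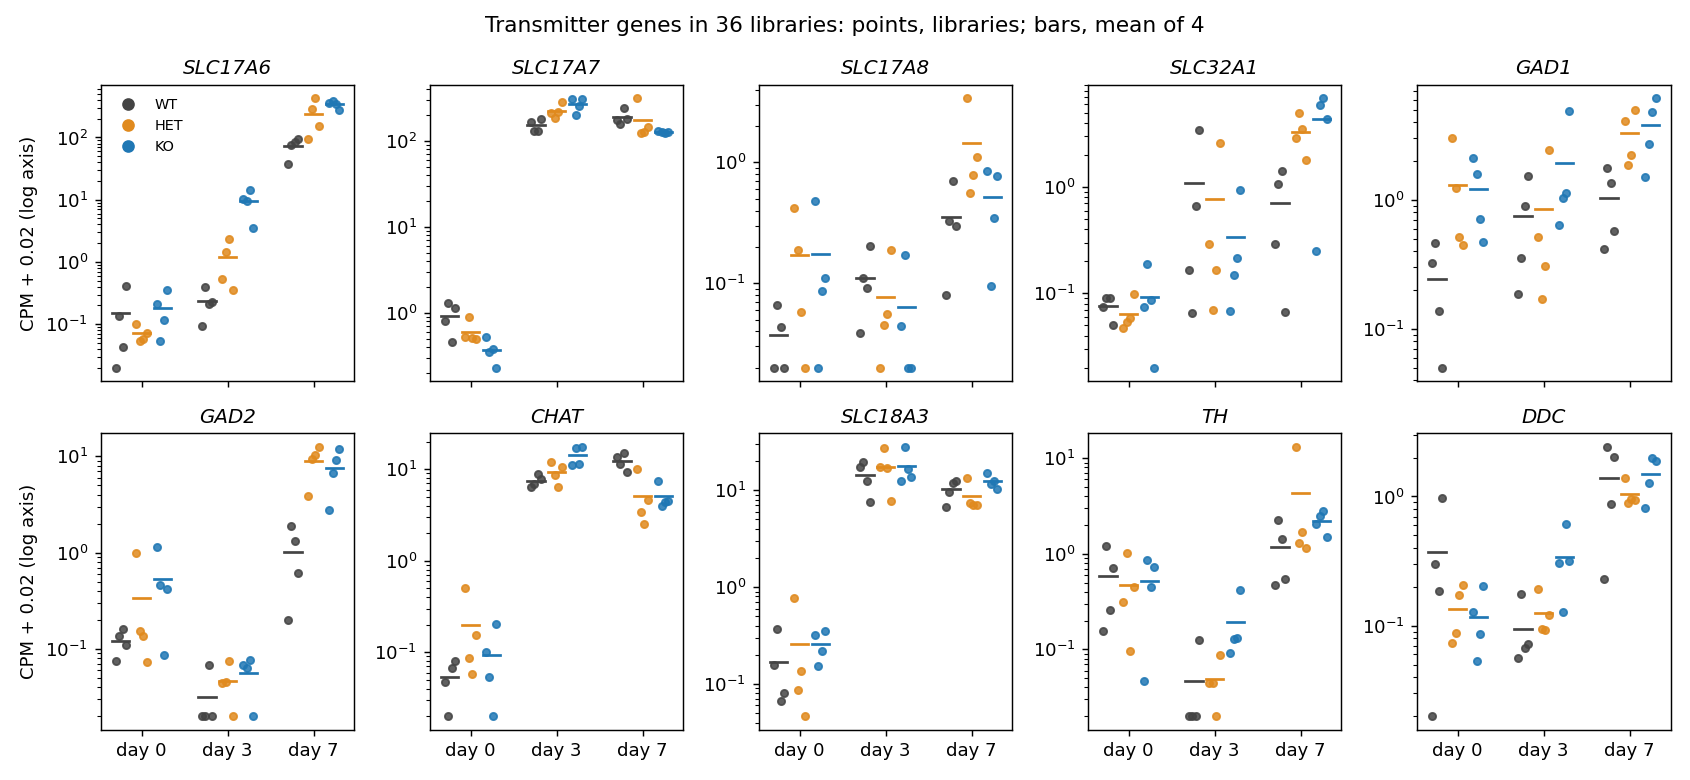
CPM + 0.02 on a log axis for the 10 transmitter genes in the 36 libraries (points), by day and genotype, with the mean of 4 as a bar. SLC17A7, CHAT and SLC18A3 appear at day 3 in every genotype, SLC17A6 climbs from day 3 to day 7, and GAD2 is near 0 at day 3 and highest in HET and KO at day 7.

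In WT, 8 of the 10 genes passed the count filter over time. From day 0 to day 3, 4 were higher (SLC17A7, CHAT, SLC18A3 and SLC32A1) and TH was lower, where 60% of all genes were called by edgeR. SLC32A1 had 1 to 3 counts at day 0 and 2 to 130 at day 3 (adjusted p = 0.0117), and the call was lost without day 3 replicate 4. From day 3 to day 7, SLC17A6, CHAT, TH and DDC were higher, where 46.2% were called. CHAT rose by 0.72 on the log2 scale (SE 0.23, edgeR adjusted p = 0.0175), a call lost without day 3 replicate 1 or 2 or day 7 replicate 3.

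Against WT, none of the 5 genes that passed the count filter at day 0 was called in KO or in HET, where 2.08% and 1.63% of all genes tested were called (edgeR quasi-likelihood test, Benjamini-Hochberg adjusted p under 0.05). At an unadjusted p under 0.05 there were 3 in KO and 1 in HET, where 12.4% and 11.6% of all genes passed. At day 3, 3 of 6 genes tested were higher in KO and none was lower, where 21.6% of all genes were called, 12.6% higher and 8.93% lower. None of the same 6 was called in HET (3.28% of all genes), with 2 at an unadjusted p under 0.05, where 14.1% of all genes passed. At day 7 all 10 passed the filter: 4 were higher and 1 lower in KO (17% and 15.6% of all genes, 32.6% together), and 2 were higher and 1 lower in HET (8.31% and 6.1%, 14.4% together). The median log2 fold change of the 10 genes at day 7 was 0.74 in KO and 1.70 in HET, and over all genes tested it was -0.04 and 0. The balance of calls depended on the scale: 58.6% of calls were higher in KO at day 3, and 76.8% by limma on log2(TPM + 1) and 85.2% on log2(TPM + 0.1). At day 7 the shares were 52.1% with edgeR, 36.2% and 69.2% in KO, and 57.7%, 39.8% and 84.6% in HET. Between KO and HET, SLC17A6 alone was called higher at day 3 (4.35% of all genes called, and 6.81% wholly higher), and no gene of the 10 was called at day 0 or day 7 by edgeR, at an adjusted or an unadjusted p under 0.05. In the same comparisons of days 0 and 7, 0.856% and 1.4% of all genes were called, and 5.75% and 13.9% passed the unadjusted threshold. The comparisons of a day share their WT libraries, so HET and KO values are given side by side only.

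**Figure D2:**
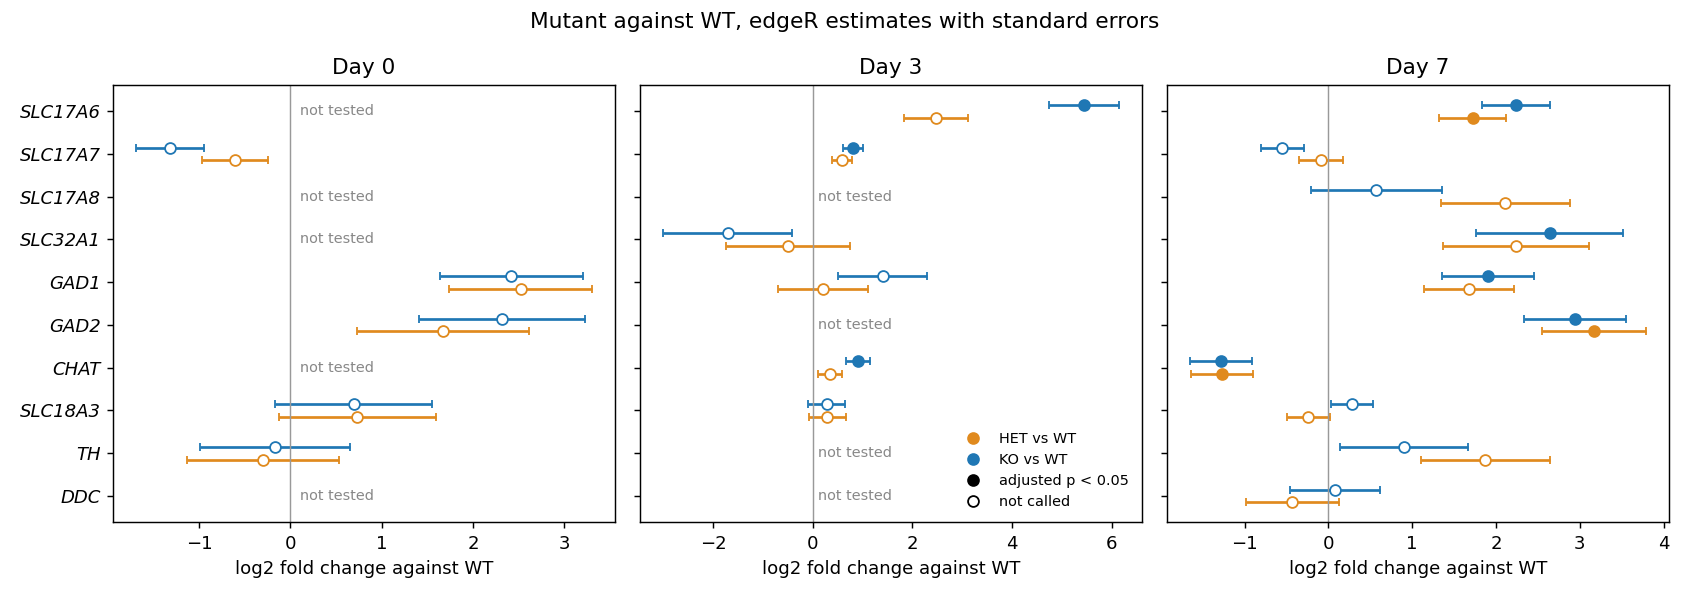
Log2 fold change against WT (x axis) with its standard error, by edgeR, for each transmitter gene (y axis) at days 0, 3 and 7; filled points passed an adjusted p of 0.05, and genes under the count filter are written as not tested. At day 3 SLC17A6 of KO lies farthest to the right, and at day 7 the filled points to the right are SLC17A6, SLC32A1, GAD1 and GAD2 in KO and SLC17A6 and GAD2 in HET, with CHAT on the left in both.

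SLC17A6 encodes VGLUT2, the glutamate transporter typical of subcortical and many sensory neurons. It was the transmitter gene that differed most by genotype at day 3. The WT libraries held 0.07, 0.38, 0.19 and 0.21 CPM (replicates 1 to 4), from 4 to 17 counts. HET held 0.52, 1.45, 2.35 and 0.34 CPM, and KO 10.4, 9.46, 14.4 and 3.48 CPM. All KO libraries lay above all HET and WT libraries, while 1 HET library fell within the range of WT. KO exceeded WT by 5.44 on the log2 scale (SE 0.70, edgeR adjusted p = 0.000134) and HET by 2.97 (SE 0.60, adjusted p = 0.0144). The second call rested on HET replicate 1, without which the difference was 2.73 with an adjusted p of 0.059. For HET against WT the log2 difference was 2.47 (SE 0.65) with an edgeR adjusted p of 0.0571, and blocking on replicate number gave 2.29 and an adjusted p of 0.0105.

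By day 7 SLC17A6 had risen in WT by 8.42 on the log2 scale over day 3 (SE 0.56, edgeR adjusted p = 5e-08). WT libraries then held 37.2, 74.7, 85.1 and 93.5 CPM, HET 95.9, 283, 424 and 154 CPM, and KO 359, 390, 344 and 276 CPM. Neither mutant overlapped WT, and HET spread over a range that KO fell within. KO was 2.24 higher than WT on the log2 scale (SE 0.41, edgeR adjusted p = 0.00133) and HET 1.72 higher (SE 0.40, adjusted p = 0.0126). Of all genes tested, 20.9% lay wholly above WT in KO and 7.55% in HET. With the share of small structural RNAs as a covariate the differences were 1.63 and 0.90, with adjusted p of 0.000673 and 0.0397. The KO excess over WT was smaller at day 7 than at day 3 by 3.23 on the log2 scale (SE 0.76, adjusted p = 0.0025), in a fit of all 36 libraries where 18.5% of all genes had a difference that changed. By limma on log2(TPM + 1) the direction was reversed, at 1.28. Mean CPM was 9.45 in KO and 0.2145 in WT at day 3, and 342 and 72.6 at day 7. The ratio of day 3 thus rested on WT libraries of 4 to 17 counts. Between days 0 and 3 the edgeR interaction test called 8.55% of all genes and SLC17A6, SLC17A7 and DDC among the 10.

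SLC17A7 encodes VGLUT1, the transporter typical of cortical and hippocampal excitatory neurons. It was low at day 0, at 0.45 to 1.28 CPM in WT, and stood at 129 to 178 CPM in WT at day 3, a log2 rise of 7.36 (SE 0.29, edgeR adjusted p = 3.49e-10). At day 3 HET held 209, 185, 217 and 281 CPM and KO 304, 198, 254 and 303 CPM, against 166, 129, 132 and 178 in WT. Both mutants lay above WT without overlap, as did 14.2% of all genes in KO and 4.63% in HET. The KO difference was 0.80 on the log2 scale (SE 0.20, edgeR adjusted p = 0.0115). The HET difference of 0.58 (SE 0.20) had an adjusted p of 0.163, and of 0.0166 when blocked on replicate number.

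At day 7 SLC17A7 was not called in either mutant. WT libraries held 172, 156, 239 and 179 CPM and KO 130, 126, 124 and 127 CPM. Every KO library thus lay below every WT library, as for 19.1% of all genes. The log2 difference of -0.55 was not called (SE 0.26, edgeR adjusted p = 0.125). HET replicates 2 to 4 held 122, 126 and 144 CPM, also below WT, and replicate 1 held 310 CPM, above it. Without replicate 1 of WT and HET, the difference was -0.58 in KO (adjusted p = 0.00398) and -0.54 in HET (adjusted p = 0.0114). These values depended on the scale: with the share of small structural RNAs as a covariate the differences were -0.16 in KO (adjusted p = 0.507) and 0.20 in HET (adjusted p = 0.459), and by limma on log2(TPM + 1) they were -0.02 and 0.69. The interaction test of the KO difference, day 7 against day 3, gave -1.37 (SE 0.35, edgeR adjusted p = 0.005).

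The 2 main transporters therefore stood in different proportion. SLC17A6 held at most 4.14% of their joint TPM in any library of day 3. At day 7 it held 14.2%, 27.4%, 20.5% and 27.9% in WT, and 67.4%, 69.5%, 67.3% and 62.2% in KO. HET held 17.7%, 63.5%, 71.4% and 45.6%, where replicate 1 alone lay within WT and the others above it. In KO at day 7 mean TPM was 44.8 ± 11.6 (SD, n = 4) for SLC17A6 and 22.0 ± 3.37 for SLC17A7, and in WT it was 6.81 ± 3.04 and 22.3 ± 3.38.

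**Figure D3:**
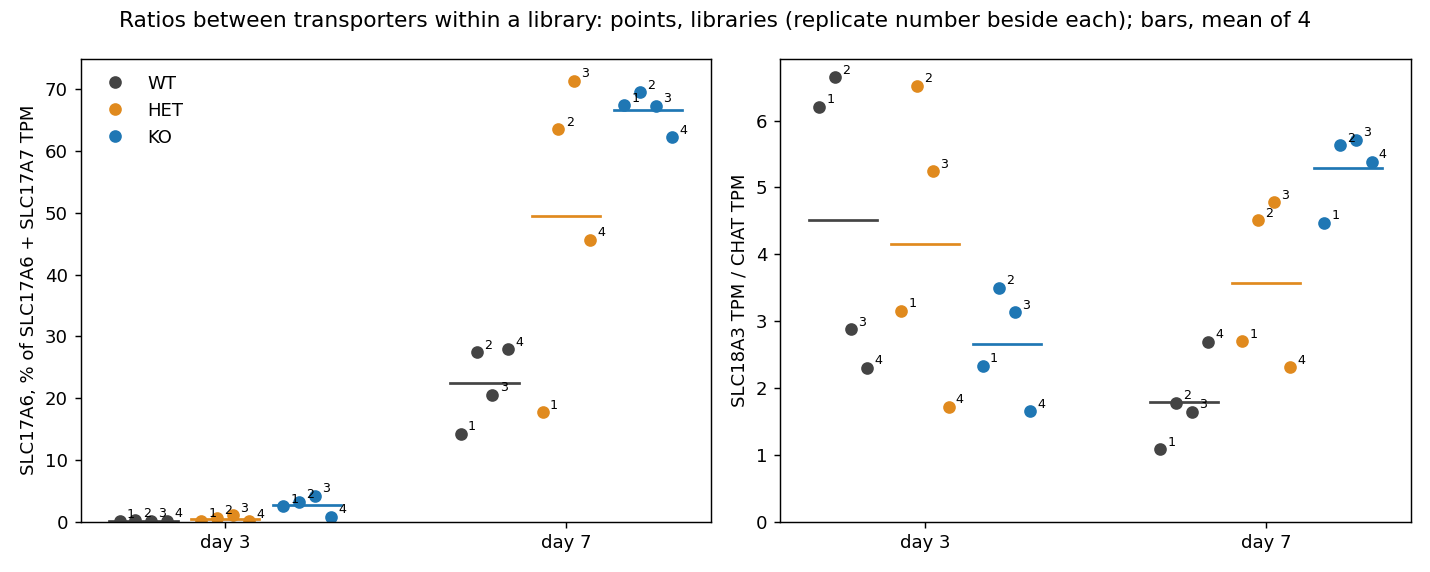
Left, SLC17A6 as a percentage of the TPM of SLC17A6 and SLC17A7; right, TPM of SLC18A3 over that of CHAT; each point is a library with its replicate number, by day (x axis) and genotype, and bars are means of 4. At day 7 KO lies between 62.2% and 69.5% and WT between 14.2% and 27.9% on the left, and KO lies above every WT library on the right.

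SLC17A8, which encodes VGLUT3, was low in every library, at most 3.37 CPM. That value was HET replicate 1 of day 7, against 0.54, 0.76 and 1.09 CPM in the other HET libraries and 0.06 to 0.68 in WT. Its log2 difference of 2.11 between HET and WT was not called (SE 0.77, edgeR adjusted p = 0.0835). It was 1.21 without HET replicate 1 (adjusted p = 0.203), 0.93 without replicate 1 of WT and HET (adjusted p = 0.305), and 2.52 with the share of small structural RNAs as a covariate (adjusted p = 0.0256). KO held 0.07 to 0.82 CPM and overlapped WT.

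The GABA genes were low in TPM. At day 7 all 3 were called higher in KO, and GAD2 alone was called higher in HET. GAD2, whose product makes GABA at synaptic terminals, had 0 to 3 counts in each library of day 3, which cannot show a difference. At day 7 WT held 0.18, 1.85, 1.3 and 0.60 CPM, HET 3.86, 9.28, 10.4 and 12.5 CPM, and KO 2.77, 6.69, 9.19 and 11.9 CPM. Neither mutant overlapped WT. The log2 difference was 2.94 in KO (SE 0.61, edgeR adjusted p = 0.00312) and 3.17 in HET (SE 0.62, adjusted p = 0.00531). In TPM these levels stayed small, 0.735 ± 0.371 in KO and 1.64 ± 0.854 in HET (SD, n = 4), against 44.8 and 61.7 for SLC17A6 in the same groups.

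GAD1, the decarboxylase that supplies GABA through the cell body, held 0.39, 1.76, 1.33 and 0.55 CPM in WT at day 7, 4.09, 1.85, 2.21 and 4.98 in HET, and 1.49, 2.68, 4.83 and 6.11 in KO. HET lay above WT without overlap, and 1 KO library fell within the WT range. The KO difference was called (log2 1.90, SE 0.55, edgeR adjusted p = 0.0179), though not without KO replicate 4 (1.57, adjusted p = 0.0517). The HET difference was not called (1.68, SE 0.54, adjusted p = 0.0557). GAD1 was also counted at day 0, where WT held 0.30, 0.44, 0.12 and 0.03 CPM, HET 3.01, 1.21, 0.50 and 0.42 CPM, and KO 2.08, 1.58, 0.69 and 0.46 CPM. Every KO library lay above every WT library, as for 4.5% of all genes. The KO difference of 2.42 had an edgeR adjusted p of 0.168 (SE 0.78), and blocking on replicate number gave 2.47 and 0.00324. Replicates 1 and 2 were the highest in each genotype at day 0.

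SLC32A1 loads GABA into vesicles. At day 7 it held 0.27, 1.05, 1.39 and 0.05 CPM in WT, 2.85, 4.94, 3.48 and 1.77 in HET, and 0.23, 5.82, 6.77 and 4.35 in KO. KO replicate 1 lay among the WT libraries and the other KO libraries above them. The KO difference was 2.64 on the log2 scale (SE 0.88, edgeR adjusted p = 0.0351), and it missed the threshold in 10 of 18 alternative fits, among them those without WT replicate 1, 2 or 4 or KO replicate 2, 3 or 4. Without replicate 1 of WT and HET it was 2.40 (adjusted p = 0.0624), and with the share of small structural RNAs as a covariate 2.38 (adjusted p = 0.0839). In HET it was 2.24 (SE 0.87, adjusted p = 0.104), without overlap with WT, and blocking on replicate number gave 2.65 and an adjusted p of 0.0425.

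At day 3 the highest SLC32A1 and GAD1 values were those of replicate 4, while GAD2 had 0 counts in replicate 4 of every genotype. SLC32A1 stood at 3.42, 2.56 and 0.91 CPM in replicate 4 of WT, HET and KO, and at most at 0.65 CPM in any other library of that day. GAD1 stood at 1.53, 2.42 and 4.89 CPM in the same 3 libraries, each the highest of its group. The small structural RNAs took 18.1%, 16.1% and 18.8% of these libraries, and 3.54% to 19.6% of the others of day 3. With that share as a covariate the KO difference from WT was -0.47 for SLC32A1 (SE 0.95, edgeR adjusted p = 0.771) and 2.13 for GAD1 (SE 0.60, adjusted p = 0.0196), where without it SLC32A1 had -1.71 (SE 1.29, adjusted p = 0.368). GAD1 in KO against WT at day 3 had a log2 difference of 1.40 (SE 0.89, edgeR adjusted p = 0.285), and blocking on replicate number gave 1.27 and 0.0387.

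**Figure D4:**
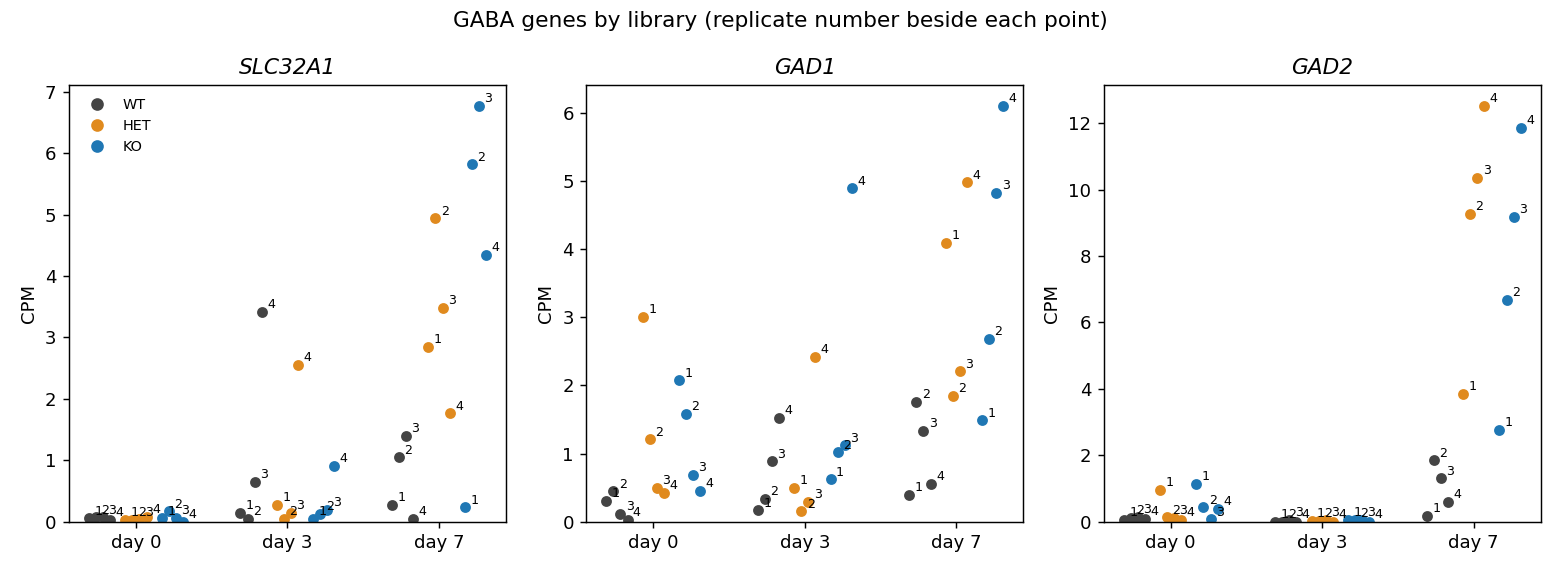
CPM of SLC32A1, GAD1 and GAD2 (y axes from 0) in each library by day and genotype, with the replicate number beside each point. Replicate 4 is the highest library of each genotype for SLC32A1 and GAD1 at day 3, and GAD2 of HET and KO lies above WT at day 7.

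The acetylcholine genes share 1 locus. SLC18A3, a gene of chr10:49610301-49612720, lies on the same strand as CHAT (chr10:49609095-49665104), inside the first intron of 1 of 12 annotated CHAT transcripts and in no CHAT exon (GENCODE 29, GRCh38). NGN2 and related proneural factors bind E-boxes, so the 250 bases before each RefSeq gene start were searched on both strands for 3 such motifs. The first was CAGATG, which reads as CATCTG when found on the strand opposite. The second motif searched was CAGCTG. The third motif searched was CATATG. Of the 10 genes, 9 had a window, 13 windows in all, and TH had none. One motif was found in 5 of the 13 windows, one each for SLC17A6, SLC17A8, GAD2, CHAT and SLC18A3. The other window of GAD2 and the other 2 of CHAT held none. Among 35116 windows of all genes, 12.2% held CAGATG or its complement, 14% CAGCTG, 2.6% CATATG and 26.1% any of the 3. A match describes letters and is not a binding site. By GENCODE 29, all 250 bases of the windows of SLC17A6 and GAD1 lie in annotated exons, as do those of the GAD2 window without a motif. SLC17A6 starts at chr11:22338097 in that annotation, so its motif lies inside the annotated gene and not upstream of it. The 30 bases around each motif are shown because they set the cholinergic pair, which share CATCTG, beside the 3 genes with CAGCTG; capitals mark the motif, and the strand is that of the gene.
SLC17A6, chr11:22338172-22338201: tacattgtttttCAGCTGaccgacttccag
SLC17A8, chr12:100357027-100357056: tgttagcgtcccCAGCTGcagcccagggag
GAD2, chr10:26216153-26216182: cttccttcccctCAGCTGgagccagacctc
CHAT, chr10:49608899-49608928: caatgggagaagCATCTGcgtctaatgctg
SLC18A3, chr10:49610127-49610156: ccagccctggagCATCTGgagagcggaccc

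The upstream windows of CHAT (chr10:49608845-49609094, 250 bases) and SLC18A3 (chr10:49610060-49610300, the 241 bases before its first annotated exon base) follow in full, since the 2 genes share a locus and both rose in WT from day 0 to day 3. GC content over the 250 bases was 57.6% for CHAT and 70.8% for SLC18A3, and the median of all windows was 58.0%. Sequences are from RefSeq, GRCh38.p14.
CHAT: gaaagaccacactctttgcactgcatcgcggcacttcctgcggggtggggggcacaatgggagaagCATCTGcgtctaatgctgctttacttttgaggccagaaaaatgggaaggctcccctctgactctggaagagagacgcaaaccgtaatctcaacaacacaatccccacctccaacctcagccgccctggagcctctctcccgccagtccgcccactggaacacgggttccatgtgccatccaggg
SLC18A3: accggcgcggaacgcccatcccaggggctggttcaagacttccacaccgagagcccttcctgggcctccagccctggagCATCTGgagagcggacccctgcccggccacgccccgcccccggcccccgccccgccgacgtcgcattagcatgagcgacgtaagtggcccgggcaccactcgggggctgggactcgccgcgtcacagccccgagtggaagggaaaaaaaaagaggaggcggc

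CHAT, the enzyme that makes acetylcholine, had 0 to 2 counts per WT library at day 0 and 294 to 371 at day 3 (edgeR adjusted p = 1.49e-09). SLC18A3, the vesicular acetylcholine transporter, rose from 2 to 15 counts to 288 to 940 over the same days (adjusted p = 7.37e-08). For CHAT at day 3, WT held 6.36, 6.88, 8.88 and 7.73 CPM, HET 12, 8.62, 6.34 and 10.5 CPM, and KO 11, 17.1, 11.3 and 17.5 CPM. KO lay above WT without overlap and HET overlapped both. The KO difference was 0.91 on the log2 scale (SE 0.24, edgeR adjusted p = 0.015), and the HET difference was 0.34 (SE 0.24, adjusted p = 0.587).

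At day 7 CHAT was called lower in both mutants by edgeR. WT held 13.5, 11.4, 14.9 and 9.40 CPM, HET 10.0, 3.42, 2.50 and 4.58 CPM, and KO 7.40, 3.95, 4.41 and 4.47 CPM. Every KO library lay below every WT library, as for 19.1% of all genes, and HET replicate 1 fell within WT. The difference was -1.28 on the log2 scale in KO (SE 0.37, edgeR adjusted p = 0.0196) and -1.27 in HET (SE 0.37, adjusted p = 0.0381), and with the share of small structural RNAs as a covariate -0.75 (adjusted p = 0.0403) and -0.90 (adjusted p = 0.0345). The KO call missed the threshold in 5 of 18 alternative fits, among them those without WT replicate 3, KO replicate 2 or KO replicate 3. The HET call missed it in 9 of 18, among them those without WT replicate 1, 2 or 3 or HET replicate 2, 3 or 4. Both calls were also lost on the TPM scales. By limma on log2(TPM + 0.1) the differences were -0.66 in KO (adjusted p = 0.309) and -0.30 in HET (adjusted p = 0.512). On log2(TPM + 1) they were -0.29 and -0.14. Without replicate 1 of WT and HET the differences were -1.21 (adjusted p = 0.00329) and -1.76 (adjusted p = 0.00106). The interaction test gave -2.21 for the change of the KO difference between days 3 and 7 (SE 0.56, edgeR adjusted p = 0.00501).

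At day 7 SLC18A3 held 6.70, 9.64, 11.9 and 12.5 CPM in WT, 13.3, 7.41, 7.03 and 6.95 in HET, and 15.1, 11.6, 12.4 and 10.3 in KO. The groups overlapped, and the log2 differences of 0.28 in KO (SE 0.25, edgeR adjusted p = 0.412) and -0.24 in HET (SE 0.26, adjusted p = 0.589) were not called. Without replicate 1 of WT and HET, SLC18A3 was 0.65 lower in HET than in WT on the log2 scale (estimate -0.65, adjusted p = 0.0103) and 0.80 higher in KO than in HET (adjusted p = 0.0205). TPM of SLC18A3 over that of CHAT was 1.08 to 2.69 in WT and 4.47 to 5.71 in KO at day 7, without overlap, and 2.31 to 4.78 in HET. At day 3 the ratio was 2.30 to 6.65 in WT and 1.65 to 3.50 in KO, which overlapped. Whether reads of 1 gene were counted in the other was not tested.

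TH, the rate-limiting enzyme of catecholamine synthesis, was low throughout. WT held 0.14, 1.19, 0.24 and 0.69 CPM at day 0 and had 0, 0, 0 and 4 counts at day 3, a fall that edgeR called (adjusted p = 0.00211). At day 7 it held 0.45, 2.26, 1.42 and 0.53 CPM in WT, above every WT library of day 3 (adjusted p = 0.000486). HET replicate 1 of day 7 held 13.1 CPM, against 1.28, 1.67 and 1.13 CPM in the other HET libraries and 1.48 to 2.80 in KO. With all libraries the HET difference was 1.87 on the log2 scale (SE 0.77, edgeR adjusted p = 0.124), and without HET replicate 1 it was 0.18 (adjusted p = 0.80). The mutants were not called at day 7, and at day 3 TH was under the count filter, with 3 to 16 counts in KO and 0 to 2 in HET (exact two-sided permutation p = 0.0286, the smallest that 4 against 4 allows, and 0.257 adjusted over the genes so tested).

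DDC, which turns L-DOPA into dopamine, rose in WT from 0.04 to 0.16 CPM at day 3 to 0.21 to 2.40 CPM at day 7 (edgeR log2 4.19, SE 0.95, adjusted p = 0.00229). The genotypes overlapped at day 7, at 0.87 to 1.37 CPM in HET and 0.80 to 1.95 in KO, and the log2 differences from WT were -0.43 (SE 0.55, adjusted p = 0.652) and 0.08 (SE 0.54, adjusted p = 0.918). DDC overlaps FIGNL1 on the same strand and DDC-AS1 on the other, so its low counts could hold reads of either. The same limit touches SLC17A6 and GAD1, each of which overlaps annotated antisense genes.

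Genes around the 10 were followed in 8 lists of transmitter pathway and fate genes, 99 genes in all. In KO against WT, 3 were higher and 1 lower at day 0 (64 tested), 18 higher and 8 lower at day 3 (70 tested), and 19 higher and 21 lower at day 7 (71 tested). In HET the counts were 2 and 0, 4 and 0, and 12 and 9. Beside these and the counts by list that follow stand the shares of all genes called: at day 3 12.6% higher and 8.93% lower in KO, and at day 7 17% and 15.6% in KO and 8.31% and 6.1% in HET. With both directions together, 2.08% were called in KO and 1.63% in HET at day 0, and 3.28% in HET at day 3. The median log2 fold change over the lists was 0.34 in KO at day 3 and 0.06 at day 7, beside -0.05 and -0.04 over all genes.

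Of 15 genes of glutamate synthesis, uptake and recycling, 6 were higher and 4 lower in KO at day 7, and 4 were higher and none lower in HET. SLC1A2, a plasma membrane glutamate transporter, was already higher in KO at day 0 (log2 1.96, SE 0.28, edgeR adjusted p = 0.00182) and reached 231 ± 59.4 CPM in KO at day 3 against 24.6 ± 10.3 in WT (SD, n = 4). At day 7 it held 348 ± 46.5 CPM in KO, 272 ± 102 in HET and 89.3 ± 9.72 in WT. SLC1A1, a neuronal glutamate transporter, held 19.5 ± 3.49, 11.3 ± 2.50 and 4.30 ± 1.37 CPM in the same groups. Other amino acid transporters of the list were lower in KO: at day 3 SLC1A5 held 52.5 ± 17.1 CPM against 129 ± 8 in WT and SLC38A5 59.3 ± 11.1 against 120 ± 9.96, and at day 7 SLC38A3 held 2.30 ± 0.835 against 6.11 ± 1.72. The SLC38A3 call was lost in 9 of 18 alternative fits, among them the replicate block and the covariate of small structural RNAs. GLUL, glutamine synthetase, was lower in KO at 169 ± 12.8 CPM against 252 ± 14.5 in WT.

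Of 7 genes of GABA and glycine uptake and breakdown tested at day 7, 5 were higher and 2 lower in KO, and 5 higher and 1 lower in HET. ABAT, the GABA transaminase, held 32.4 ± 9.11 CPM in KO and 10.1 ± 3.23 in WT (log2 1.68, SE 0.33, edgeR adjusted p = 0.00224). ALDH5A1, the next enzyme of GABA breakdown, was lower in KO at day 3 (log2 -1.12, SE 0.22) and higher at day 7 (1.54, SE 0.26). SLC6A9, a glycine transporter, was lower in KO at 7.54 ± 2.65 CPM against 23.9 ± 7.30.

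In the cholinergic list, 2 of 8 genes were higher and 2 lower in KO at day 7, and 2 were higher in HET. ACHE, which breaks acetylcholine down, held 133 ± 15.3 CPM in KO and 127 ± 60.8 in HET against 42.7 ± 13.1 in WT. SLC5A7, which takes up choline for CHAT, held 6.62 ± 1.99 CPM in KO against 0.946 ± 0.896 in WT (log2 2.78, SE 0.88, edgeR adjusted p = 0.0281). This call was lost in 6 of 18 alternative fits, among them those without WT replicate 1, 2 or 3 or KO replicate 1. SLC44A1, a choline transporter-like protein, was lower in KO, at 31.9 ± 5.88 CPM against 52.8 ± 5.93 in WT (log2 -0.72, SE 0.20, adjusted p = 0.0154), a call lost without KO replicate 3. In the monoamine list, 2 of 13 genes were higher and 2 lower in KO at day 7, and 2 were lower in HET. SLC6A3, the dopamine transporter, stood at 34.9 ± 3.36 CPM in KO, 12.6 ± 3.65 in HET and 2.90 ± 1.08 in WT at day 3, in the order of SLC17A6.

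**Figure D5:**
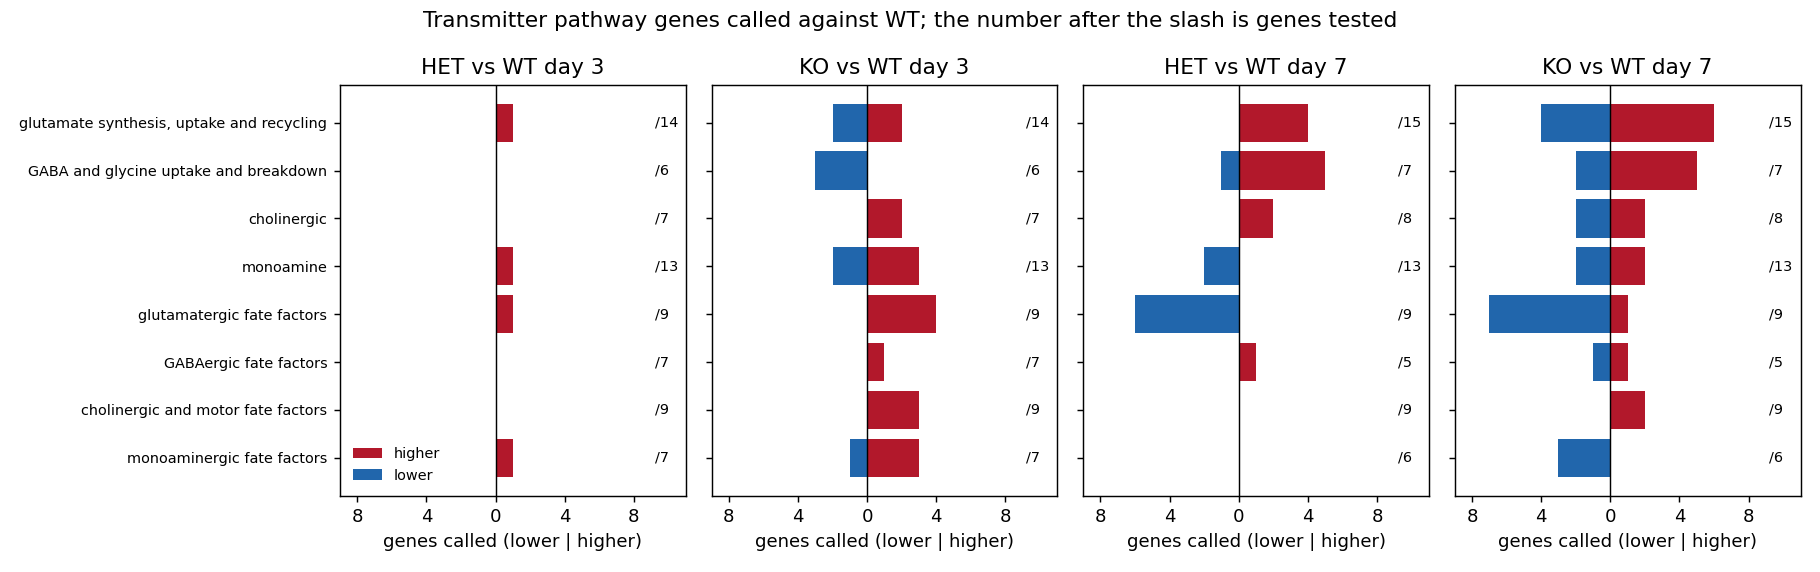
Number of genes called lower (left of 0) and higher (right of 0) against WT in 8 lists of transmitter pathway and fate genes, with the number tested after the slash. At day 7 the glutamatergic fate factors have 7 lower and 1 higher in KO and 6 lower in HET, and at day 3 they have 4 higher in KO.

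Of 9 glutamatergic factors tested, 4 were higher and none lower in KO at day 3, while 1 was higher and 7 were lower at day 7, beside 8.93% and 15.6% of all genes called lower. NEUROD1, a proneural factor downstream of NGN2, held 90.9 ± 23.2 CPM in KO and 22.3 ± 5.20 in WT at day 3, and 12.6 ± 5.38 against 458 ± 79.3 at day 7 (log2 -5.18, SE 0.58, edgeR adjusted p = 6.82e-05). In HET at day 7 it held 113 ± 83.4 CPM (log2 -2.03, SE 0.50, adjusted p = 0.0166), a call lost without HET replicate 2. Of 9 cholinergic and motor factors, 3 were higher in KO at day 3 and 2 at day 7, with none lower. ISL1, a factor of motor and sensory neurons, held 6.41 ± 1.81 CPM in KO against 1.56 ± 0.826 in WT at day 3. ISL2 held 9.96 ± 8.34 CPM in KO at day 7 against 1.00 ± 0.496. Of 12 markers of peripheral sensory or autonomic neurons, which include ISL1, 9 were higher and 1 lower in KO at day 3, and their summed CPM was 410 to 873 in KO against 94.2 to 141 in WT. At day 7 the sums overlapped (889 to 1430 against 793 to 1063). PAX2 is a factor of GABAergic interneurons of the hindbrain and spinal cord. At day 7 it held 18.8 ± 6.50 CPM in KO and 31.2 ± 5.50 in HET against 5.71 ± 1.35 in WT. Of the 5 GABAergic factors tested at day 7, 1 was higher and 1 lower in KO, and 1 was higher in HET. Of 6 monoaminergic factors tested at day 7, 3 were lower in KO and none was called in HET. At day 3, 3 of 7 were higher and 1 lower in KO, and 1 was higher in HET. INSM1 of this list held 264 ± 24.8 CPM in KO and 165 ± 60 in HET at day 3 against 39.9 ± 11.6 in WT. At day 7 it held 76.1 ± 33.7 CPM in KO against 206 ± 46.8 in WT.

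NEUROD1, SLC1A1, SLC1A2, ALDH5A1, ABAT and ISL2 overlap other annotated genes, and the use of strand in counting is not given in the sources used here. Genes most like a transmitter gene over the 9 group means (Pearson r on log2(CPM + 1), among 13416 genes) were DENND6B for SLC17A6 (r = 0.9984), GRK4 for SLC17A7 (0.9991), PACC1 for CHAT (0.9973) and CHST8 for SLC18A3 (0.9969), where the means share libraries and a time course. Within the 10 genes, SLC17A7 was most like SLC18A3 (r = 0.99) and CHAT (0.97), and SLC17A6 was most like DDC (0.96). TH and CHAT had a correlation of 0.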

How the data were processed

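RNA of 36 libraries was depleted of ribosomal RNA and read as 151 bp pairs, per the labels' protocols. Expected counts (whole in every cell) and TPM were used as the authors deposited them. The submitters' processing notes name cutadapt 4.8, FastQC 0.11.8, MultiQC 1.20, STAR 2.7.8a, RSEM 1.3.3 and GRCh38. Annotation and use of strand are not given in the sources used here. The deposited FPKM were not used, and 4 reporter features were left out of the 62714. Positions are from GENCODE 29.

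Genotypes were compared on the 12 libraries of a day, WT days on the 12 WT libraries and interactions on all 36, with edgeR 4.0.16 in R 4.3.3 (TMM, filterByExpr, quasi-likelihood, Benjamini-Hochberg over all genes tested, 0.05). Genes under the filter were compared by exact permutation over 70 splits on log2(CPM + 1). Data for KO against WT at day 3 were simulated with 200 genes changed (21053 genes tested). On these edgeR recovered 73.1% of 4-fold and 20.8% of 2-fold changes, with 4.3% false calls. In the same simulation false calls were 2.4% with the replicate block, 6.8% with the covariate, 7.2% with limma on log2 values and 28% with DESeq2. The share of false calls depends on how many genes change, and edgeR called 21.6% of all genes in the real comparison. Alternatives used DESeq2 1.42.0, limma 3.58.1 on log2(TPM + 1) and log2(TPM + 0.1), other filters, covariates and sets of libraries. Leaving out replicate 1 of WT and HET together was chosen after seeing the data. Figures were drawn with matplotlib 3.10.9.

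The 10 genes, the lists and the tests were chosen with earlier results of these data known. Named list genes were, per comparison, up to 2 rises and 2 falls in each list, by size, among called genes with a mean of at least 5 CPM in the higher group and no overlap. Some of these are not described, and a few are not reported here. Same-numbered libraries deviated together, with r over 0.1 in all 4 pairs, in 3 comparisons: the lowest and highest r were 0.252 and 0.628 (KO against WT, day 0), 0.14 and 0.549 (KO against WT, day 3), and 0.166 and 0.767 (HET against WT, day 3). The labels name no shared origin behind the numbers.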

Additional observations from a re-analysis of the deposited data

Results flagged for a closer look

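Among 59 groups of 4 libraries checked, 11 had a library far from the other 3 by Dixon's criterion. For normal values about 1 in 20, or 3 groups, would be flagged. These CPM include low, skewed counts, and several of the 11 come from the same library. The 11 therefore cannot be read as an excess over chance. At day 7, HET replicate 1 stood apart in SLC17A7 (310.3 CPM against 122.2 to 143.5), SLC18A3 (13.29 against 6.949 to 7.41), TH (13.11 against 1.125 to 1.666) and DDC (1.373 against 0.8686 to 0.9311). At day 3, replicate 4 stood apart in SLC32A1 of HET (2.555 CPM against 0.04981 to 0.271) and KO (0.9143 against 0.04789 to 0.1958), and in GAD1 of HET (2.42 against 0.1494 to 0.4927) and KO (4.893 against 0.6225 to 1.119). The other 3 were SLC17A7 in HET replicate 2 of day 0 (0.8738 CPM), GAD2 in HET replicate 1 of day 0 (0.9682 CPM) and CHAT in KO replicate 1 of day 7 (7.397 CPM).

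The difference between KO and WT itself changed between days for 7 results in the edgeR interaction test on 36 libraries. From day 0 to day 3 it changed by 5.05 on the log2 scale for SLC17A6 (adjusted p = 0.00986) and 2.15 for SLC17A7 (0.00154). For DDC it changed by 3.83 (0.0261), and 8.55% of all genes tested were called. SLC17A7 changed sign, from -1.32 at day 0 (SE 0.37, edgeR adjusted p = 0.112) to 0.80 at day 3 (adjusted p = 0.0115). Mean CPM of DDC in KO and WT was 0.0974 and 0.352 at day 0, and 0.32 and 0.0737 at day 3. DDC was under the count filter on both days. From day 3 to day 7 the difference between KO and WT changed by -3.23 for SLC17A6, -1.37 for SLC17A7 and -2.21 for CHAT, and by 4.34 for SLC32A1 (adjusted p = 0.0325). The counts of DDC at days 0 and 3 were at most 32 per library. The SLC32A1 value missed the threshold in 10 of 24 alternatives and the DDC value in 9 of 24. The SLC17A6 value of days 0 and 3 missed it without WT replicate 4 of day 0.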

How the results depend on the processing

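Of 533 alternative values of the 28 called fold changes of the 10 genes, 455 kept direction and call, 77 kept direction and lost the call, and 1 was reversed. On log2(TPM + 1), limma called 1 gene for KO at day 3, none for KO or HET at day 7 or KO against HET at day 3, 1 for WT day 7 against day 3, and 0 and 1 for the 2 interactions, and the SLC17A6 interaction of days 7 and 3 turned to 1.28. On log2(TPM + 0.1) it called 1, 3 (KO day 7), 0 (KO against HET day 3), 1 and 1. That scale moved the median of all genes by 0.37 in KO at day 7 and 0.38 at day 3, and it turned SPR in WT from day 0 to 3 (-0.02). DESeq2 called 1 at day 0 in KO and in HET, 1 in HET at day 3 and 5 in HET at day 7. Its 28% of false calls came from a simulation with 200 changed genes and need not hold in these comparisons. Without the count filter, calls were 1 in HET at day 3 and 8 in WT from day 0 to 3. The replicate block gave 1 call in KO and in HET at day 0 (GAD1) and 2 in HET at day 3, and changed no other count of calls by over 1.5 times. Without WT and HET replicate 1 of day 7, HET had 5 calls and KO against HET 1. Leaving out 1 library at a time gave 3 to 5 calls for KO at day 7, 2 to 4 for HET at day 7, 0 to 1 for HET at day 3 (1 without HET replicate 4) and KO against HET at day 3 (0 without HET replicate 1), and 1 to 3 for the interaction of days 3 and 0 (1 without WT day 0 replicate 4). The cause of these differences was not tested. Where both groups held at most 3 counts per library, here at most 0.121 CPM, no difference was detectable.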
